A study of Homo sapiens with 24 samples.

Results

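The 50 genes described here form a G2 and mitosis programme: cyclins and CDK1, mitotic kinases, spindle checkpoint and anaphase proteins, kinesins, kinetochore proteins, spindle, cytokinesis and chromosome proteins, and the transcription factors FOXM1 and MYBL2. They were listed by gene symbol, with earlier results of these data already known. Each was found among the 28008 genes of the batch 1 table and among the 60221 genes of the batch 2 table. All 50 passed the filter on low counts in both tables, where 14310 and 18763 genes were tested.

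The measurements are RNA-seq of A375, an established human melanoma cell line, with 24 libraries in 8 groups of 3 biological replicates. Each cell population was transfected with a pcDNA3.1 plasmid (CAG promoter, puromycin resistance), kept under puromycin, and depleted of ribosomal RNA before sequencing, so the empty vector cells also carried plasmid and drug. In batch 2 the insert was the long noncoding RNA SLNCR without triplex-forming region 4 (ΔTFR4), SLNCR without region 5 (ΔTFR5), full-length SLNCR (FL), or none (empty vector). In batch 1 it was SLNCR without region 1 (ΔTFR1), without region 2 (ΔTFR2), full-length SLNCR, or none. Triplex-forming regions are parts of an RNA thought to pair with duplex DNA, and the design asks which genes respond to SLNCR and to the loss of each region. The puromycin dose and the hours of selection were recorded as the same for all 24 libraries. The cells were selected populations, and the labels say nothing of clones.

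Cells enter mitosis when cyclin B and cyclin A activate CDK1, a step opened by CDC25 phosphatases. Polo-like and Aurora kinases then build the spindle, the checkpoint holds anaphase until every kinetochore is attached, and CDC20 with the anaphase-promoting complex destroys cyclin B and securin. Most of these genes are transcribed late in the cell cycle, from promoters that carry CCAAT boxes, bound by NF-Y, and a cell cycle genes homology region, bound by the DREAM and MYBL2-MuvB complexes, with FOXM1 joining MYBL2-MuvB. In dividing cell lines their summed RNA is widely used as a measure of proliferation.

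Promoter windows of 300 bases, with 250 before and 50 after each transcription start, were taken from RefSeq on GRCh38.p14 and covered 42 of the 50 genes with 54 starts. They are shown because the genes moved together in batch 2, described further on. Capitals mark the CCAAT box, which is ATTGG when it lies on the other strand. They also mark the homology region core TTTGAA, which is TTCAAA when it lies on the other strand, and its variant TTTAAA, which reads alike on both. CCNB1, CDC20 and PLK1 were 3 of the genes that fell with ΔTFR4 against empty vector, KIF20A had the largest fall, MYBL2 fell without holding any of these letters, and KIF18A holds them without having been called.
CCNB1, chr5:69166900-69167199, + strand: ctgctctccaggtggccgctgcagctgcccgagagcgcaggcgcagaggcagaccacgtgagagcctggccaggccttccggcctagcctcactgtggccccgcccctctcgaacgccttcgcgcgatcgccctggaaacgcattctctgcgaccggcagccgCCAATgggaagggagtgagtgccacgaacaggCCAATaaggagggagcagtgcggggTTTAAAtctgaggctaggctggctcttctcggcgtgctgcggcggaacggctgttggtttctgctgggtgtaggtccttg
CDC20, chr1:43358731-43359030, + strand: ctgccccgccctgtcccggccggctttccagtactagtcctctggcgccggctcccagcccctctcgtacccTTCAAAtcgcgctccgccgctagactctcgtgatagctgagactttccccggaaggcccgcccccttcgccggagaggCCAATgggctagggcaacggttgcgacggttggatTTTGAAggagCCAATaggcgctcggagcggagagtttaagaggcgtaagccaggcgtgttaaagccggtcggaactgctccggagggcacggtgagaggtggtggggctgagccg
PLK1, chr16:23678639-23678938, + strand: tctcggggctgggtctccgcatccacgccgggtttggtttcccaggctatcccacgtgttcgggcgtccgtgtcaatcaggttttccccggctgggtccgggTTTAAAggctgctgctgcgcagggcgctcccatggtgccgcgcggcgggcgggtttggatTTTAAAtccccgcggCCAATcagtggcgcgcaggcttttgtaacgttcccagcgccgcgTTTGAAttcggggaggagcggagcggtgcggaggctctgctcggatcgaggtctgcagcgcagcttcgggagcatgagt
KIF20A, chr5:138178862-138179161, + strand: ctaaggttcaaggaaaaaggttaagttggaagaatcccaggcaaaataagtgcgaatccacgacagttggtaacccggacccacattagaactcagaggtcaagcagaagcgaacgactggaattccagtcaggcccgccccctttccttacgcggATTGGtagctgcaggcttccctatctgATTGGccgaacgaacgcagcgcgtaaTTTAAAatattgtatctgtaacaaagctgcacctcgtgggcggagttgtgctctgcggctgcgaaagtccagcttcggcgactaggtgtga
MYBL2, chr20:43666864-43667163, + strand: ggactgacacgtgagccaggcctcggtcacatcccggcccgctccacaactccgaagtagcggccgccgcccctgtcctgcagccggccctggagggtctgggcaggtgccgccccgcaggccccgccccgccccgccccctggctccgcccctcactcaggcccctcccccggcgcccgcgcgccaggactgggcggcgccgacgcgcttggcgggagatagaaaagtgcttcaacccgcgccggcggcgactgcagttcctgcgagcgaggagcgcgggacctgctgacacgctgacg
KIF18A, chr11:28108107-28108406, - strand: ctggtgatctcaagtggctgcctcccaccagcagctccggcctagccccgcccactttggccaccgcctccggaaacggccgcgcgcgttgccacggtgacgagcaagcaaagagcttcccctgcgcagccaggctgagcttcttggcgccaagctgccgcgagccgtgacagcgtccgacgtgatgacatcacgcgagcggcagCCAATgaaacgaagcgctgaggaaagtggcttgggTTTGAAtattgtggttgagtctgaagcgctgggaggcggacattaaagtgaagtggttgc
Counted from the 5′ end of its window, CDC20 holds CCAAT at positions 151 and 196 with TTTGAA at 186, while CCNB1 holds CCAAT at 164 and 196 with TTTAAA at 221. Of the 54 windows of these genes, 74.1% held CCAAT, 40.7% held it at 2 or more places, 63.0% held TTTGAA and 25.9% held TTTAAA. Among all 35093 windows of the same length these shares were 34.6%, 10.7%, 15.2% and 12.2%. CCAAT together with either homology core stood in 59.3% of the windows of these genes and in 9.27% of all windows. Among genes that fell with ΔTFR4 against empty vector 60.0% of 50 windows held that pair, and among those not called 2 of 4 windows did. A match is a description of the letters and not of binding.

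Libraries held 8627449 to 10789211 counts in batch 1 and 24810095 to 33063297 in batch 2, and the median total of the 50 genes over 12 libraries was 11771.5 counts in batch 1 and 22016.5 in batch 2. SLNCR, counted at its endogenous gene, stood at 194 to 733 CPM (counts scaled to a common library size) in the 9 batch 2 libraries given an insert and at 26.8 to 30.0 CPM with empty vector. In batch 1 it stood at 166 to 240 CPM with an insert and at 18.6 to 20.8 CPM without. FL replicate 1 of batch 2 stood apart in base composition, with log2 levels that fell by 0.44 per 10 percentage points of transcript GC, where the slopes of the other batch 2 libraries lay between -0.04 and 0.10. The labels call A375 epithelial. Of 10 melanocyte lineage markers, 4 in batch 1 and 5 in batch 2 had a median of 10 CPM or more, SOX10, MITF, MCAM and CSPG4 in both, while the pigment cell genes PMEL, MLANA, TYR and DCT, and S100B, stayed under 3 CPM in every library. Of 5 markers of dedifferentiated melanoma, among them AXL, 4 reached that level in batch 1 and 5 in batch 2. The keratins KRT8 and KRT18 also reached it, whereas the epithelial markers EPCAM, CDH1, KRT5 and KRT14 did not and none of the fibroblast, immune and endothelial markers reached 10 CPM. Of the 50 genes, 17 have exons that overlap a gene on the other strand, among them CCNA2, PLK1, KIF20A, NUF2 and FOXM1. The strand setting of the counting is not given in the sources used here, so reads from such partners cannot be told apart. PTTG1 and KIF4A have near-identical copies elsewhere in the genome and are uncertain for that reason.

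Divided by transcript length, the order of the highest levels in empty vector cells was the same in both batches. CDC20, the activator of the anaphase-promoting complex, was highest at 190 ± 7.50 CPM per kb in batch 1 and 148 ± 16.9 CPM per kb in batch 2 (SD, n = 3 each). Cyclin B1 (CCNB1) came next at 138 ± 3.48 and 106 ± 0.887 CPM per kb. UBE2C, the E2 enzyme of the same complex, and TPX2, the activator of AURKA, followed and did not differ beyond their spread in batch 1, at 99.1 ± 3.63 and 97.5 ± 2.02 CPM per kb.

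In batch 2 the G2 and mitosis genes were lower with ΔTFR4 than with empty vector. With ΔTFR4 the 50 genes together took 0.325%, 0.320% and 0.341% of all counts. They took 0.377%, 0.336% and 0.535% with ΔTFR5, 0.449%, 0.422% and 0.612% with FL, and 0.638%, 0.649% and 0.630% with empty vector. The 3 ΔTFR4 libraries lay close together and below all others except ΔTFR5 replicate 2, which lay among them, while replicate 3 of both ΔTFR5 and FL lay well above the other two of its group. In edgeR's quasi-likelihood test, with Benjamini-Hochberg adjustment over all 18763 genes, 44 of the 50 genes fell with ΔTFR4 against empty vector and none rose. The background was 11.4% of all genes called lower and 12.5% called higher. The median log2 fold change of the 50 was -0.99, a fold of 0.502, where the median of all genes was 0.02. In all 50 genes every ΔTFR4 library was below every empty vector library, which held for 27.5% of all genes. Fewer cells in G2 and mitosis and less of these RNAs per cell cannot be told apart in bulk RNA.

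**Figure D1:**
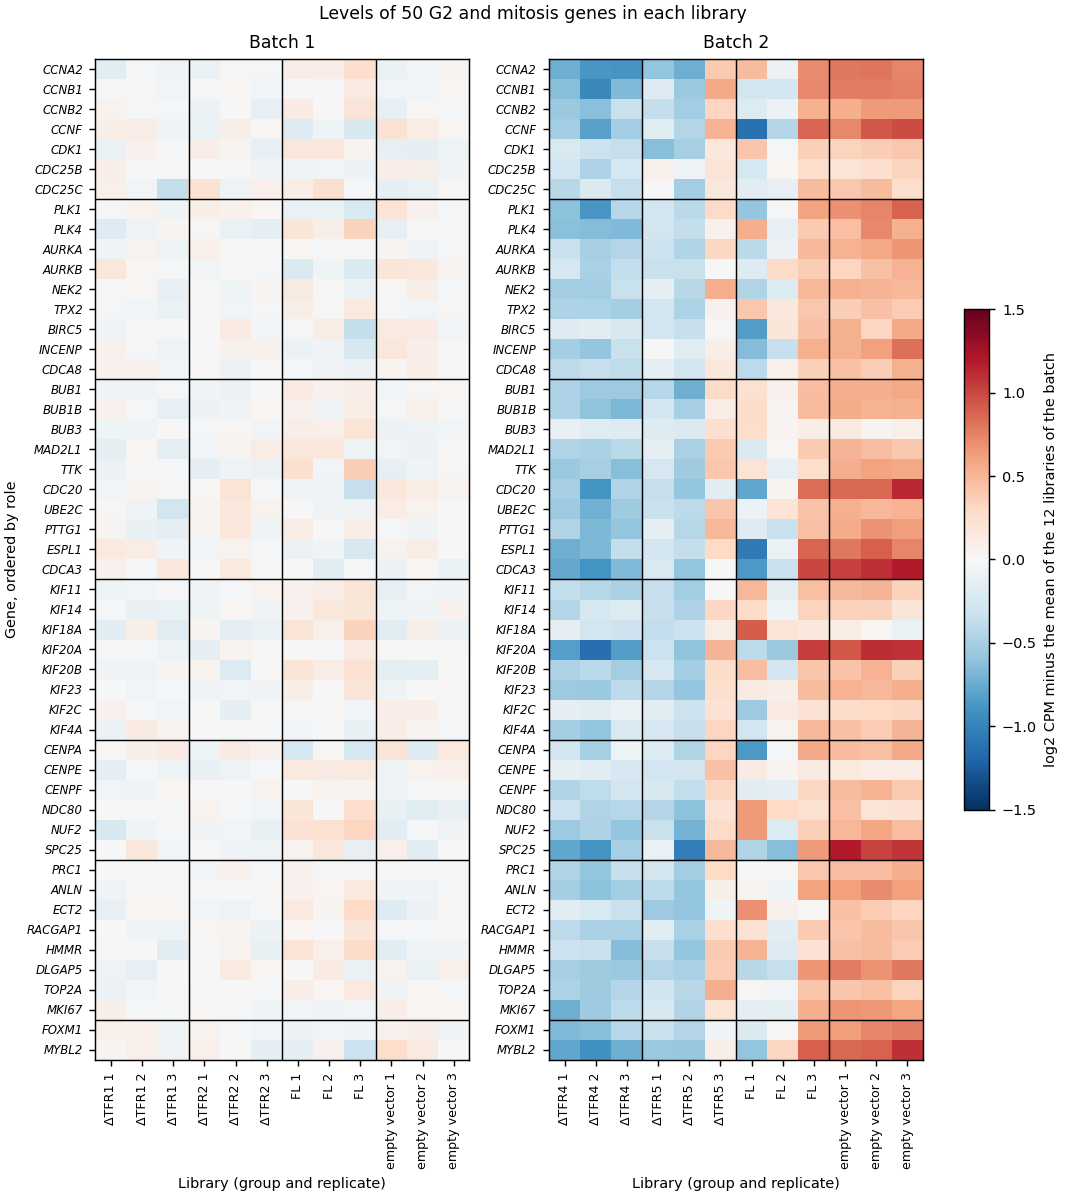
Colour gives the log2 CPM of each of the 50 genes (rows, ordered by role, with lines between roles) in each library (columns), minus the mean over the 12 libraries of its batch. In batch 2 the ΔTFR4 libraries and replicates 1 and 2 of ΔTFR5 are mostly blue, the empty vector libraries and FL replicate 3 are red, and in batch 1 all libraries stay close to 0.

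Replicate 3 of ΔTFR5 and of FL stood apart from the rest of its group in batch 2, with less SLNCR and a larger share of counts in the 50 genes. ΔTFR5 replicate 3 had the least SLNCR of its group, at 194 CPM against 325 and 381 CPM in replicates 1 and 2, and was highest of its group for 50 of 50 genes, beside 38.1% of all genes. FL replicate 3 had 329 CPM of SLNCR against 733 and 636 CPM in replicates 1 and 2, and was highest of its group for 39 of 50, beside 34.1% of all genes. FL replicate 1 had more SLNCR than FL replicate 2 and a higher share of counts in the 50 genes, 0.449% against 0.422%. By the median log2 deviation of the 50 genes from their batch means, the order was the other way. That median was -0.17 in FL replicate 1, -0.05 in replicate 2 and 0.45 in replicate 3. Both replicate 3 libraries exceeded every ΔTFR4 library in 50 of 50 genes, beside 34.0% of all genes for ΔTFR5 replicate 3 and 36.4% for FL replicate 3. Below every empty vector library were 50 of the 50 genes in ΔTFR5 replicate 1 and in replicate 2 and 42 in replicate 3, beside 36.2%, 36.3% and 35.8% of all genes. In FL replicates 1, 2 and 3 these were 37, 48 and 29 genes, beside 42.0%, 37.9% and 24.8% of all genes. Whether the amount of SLNCR has a part in these values was not tested. The ΔTFR4 libraries had 514, 511 and 452 CPM of SLNCR, less than FL replicates 1 and 2, with lower levels of the 50 genes together. Within ΔTFR4 replicate 3 likewise had the least SLNCR and the largest share of counts in the 50 genes, 0.341% against 0.325% and 0.320%, by smaller margins.

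**Figure D2:**
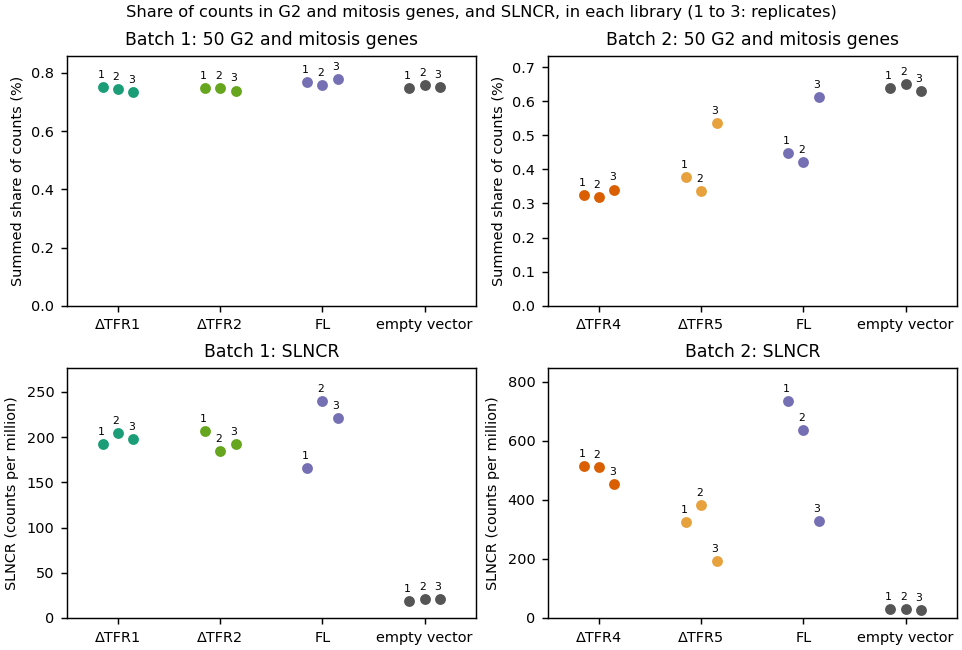
Points are libraries, numbered by replicate. The upper panels give the share of all counts (%) in the 50 genes and the lower panels give SLNCR (CPM over all counts), by group, in batch 1 (left) and batch 2 (right). In batch 2, replicate 3 of ΔTFR5 and of FL has the highest share of its group, 0.535% and 0.612%, and the least SLNCR, 194 and 329 CPM.

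The cyclins, CDK1 and the CDC25 phosphatases, which trigger entry into mitosis, all fell with ΔTFR4 against empty vector, 7 of 7, with a median log2 fold change of -1.11. CCNB1, the cyclin that carries CDK1 into mitosis, was at 86.5, 69.3 and 85.2 CPM in ΔTFR4 libraries, 118, 91.8 and 200.4 CPM in ΔTFR5 libraries and 112, 111 and 222 CPM in FL libraries, against 229, 232 and 228 CPM in empty vector libraries. The ΔTFR4 libraries were below all others and the empty vector libraries above all others. The log2 fold change was -1.52 ± 0.29 (SE; adjusted p = 0.00341) for ΔTFR4, -0.75 ± 0.29 (SE; adjusted p = 0.113) for ΔTFR5 and -0.63 ± 0.29 (SE; adjusted p = 0.179) for FL, each against empty vector. CCNA2, the cyclin of S phase and G2, was at 41.1, 37.4 and 37.0 CPM with ΔTFR4, 45.5, 41.1 and 89.5 CPM with ΔTFR5, 95.4, 64.2 and 112 CPM with FL and 118, 119 and 114 CPM with empty vector. Every library with an insert was below every empty vector library, and FL replicate 3 came closest. CCNA2 fell by 1.61 on the log2 scale with ΔTFR4 (adjusted p = 0.00176) and by 1.00 with ΔTFR5 (adjusted p = 0.0289), and had -0.37 ± 0.25 (SE; adjusted p = 0.360) with FL. CDK1, the catalytic partner of both cyclins, was at 25.4, 23.8 and 23.4 CPM with ΔTFR4, 19.1, 21.1 and 33.1 CPM with ΔTFR5, 39.8, 29.5 and 38.2 CPM with FL and 37.4, 38.4 and 39.4 CPM with empty vector. Both deletion groups lay below the empty vector group, and FL overlapped it. CDK1 fell less than its cyclins, with -0.66 ± 0.19 (SE; adjusted p = 0.0214) for ΔTFR4 and -0.65 ± 0.19 (SE; adjusted p = 0.0437) for ΔTFR5, and that difference between genes was not tested. CDC25B, a phosphatase that starts CDK1 activation, had the smallest fall of the group with ΔTFR4, -0.60 ± 0.14 (SE; adjusted p = 0.00783).

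Among the mitotic kinases and their partners 8 of 9 fell with ΔTFR4 against empty vector, and BIRC5 (survivin) did not pass the test at -0.67 ± 0.24 (SE; adjusted p = 0.0570). PLK1, the Polo-like kinase of centrosome maturation and mitotic exit, was at 89.2, 75.0 and 102 CPM in ΔTFR4 libraries, 113, 103 and 168 CPM in ΔTFR5 libraries and 91.8, 135 and 209 CPM in FL libraries, against 220.2, 228 and 252 CPM in empty vector libraries. All 9 libraries with an insert were below the empty vector libraries, and ΔTFR4 and FL overlapped in FL replicate 1. PLK1 fell with ΔTFR4, -1.40 ± 0.26 (SE; adjusted p = 0.00285), and with ΔTFR5, -0.87 ± 0.25 (SE; adjusted p = 0.0470). AURKA, the Aurora kinase of spindle poles, was at 55.9, 49.9 and 52.0 CPM with ΔTFR4, 56.6, 51.7 and 87.5 CPM with ΔTFR5, 53.3, 66.5 and 99.2 CPM with FL and 101, 106 and 112 CPM with empty vector. The 3 insert groups overlapped one another and none overlapped empty vector. AURKA fell with ΔTFR4, -1.01 ± 0.22 (SE; adjusted p = 0.00645), and had -0.70 ± 0.22 (SE; adjusted p = 0.0587) with ΔTFR5. AURKB, the kinase of the chromosomal passenger complex, was at 45.7, 39.1 and 42.4 CPM with ΔTFR4, 43.5, 43.3 and 55.1 CPM with ΔTFR5, 48.0, 66.8 and 70.8 CPM with FL and 68.2, 74.4 and 78.2 CPM with empty vector. It fell with both deletions, -0.79 ± 0.15 (SE; adjusted p = 0.00369) for ΔTFR4 and -0.64 ± 0.15 (SE; adjusted p = 0.0220) for ΔTFR5, and FL overlapped empty vector. PLK4, the kinase of centriole duplication, was at 14.99, 14.7 and 14.5 CPM with ΔTFR4, 19.0, 18.0 and 24.1 CPM with ΔTFR5, 33.8, 21.1 and 30.4 CPM with FL and 31.5, 38.1 and 33.3 CPM with empty vector. Its ΔTFR4 values lay close together and below every other library, and PLK4 fell with ΔTFR4, -1.22 ± 0.18 (SE; adjusted p = 0.000957), and with ΔTFR5, -0.75 ± 0.17 (SE; adjusted p = 0.0179). INCENP, the scaffold of the passenger complex, had the lowest adjusted p of the 50 genes in FL against empty vector, -0.73 ± 0.23 (SE; adjusted p = 0.0923).

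Spindle checkpoint and anaphase genes fell in 9 of 10 cases with ΔTFR4 against empty vector, at a median log2 fold change of -1.13. CDC20 was at 96.4, 73.2 and 99.3 CPM in ΔTFR4 libraries, 107, 90.7 and 121 CPM in ΔTFR5 libraries and 79.3, 140.0 and 243 CPM in FL libraries, against 246, 247 and 298 CPM in empty vector libraries. ΔTFR4, ΔTFR5 and FL replicate 1 lay together, FL replicate 3 lay just under the empty vector libraries, and no insert library overlapped them. CDC20 fell with ΔTFR4, -1.56 ± 0.30 (SE; adjusted p = 0.00341), and with ΔTFR5, -1.31 ± 0.30 (SE; adjusted p = 0.0165), and had -0.78 ± 0.29 (SE; adjusted p = 0.127) with FL. BUB1, the checkpoint kinase at kinetochores, was at 45.2, 42.7 and 42.4 CPM with ΔTFR4, 46.3, 37.4 and 75.8 CPM with ΔTFR5, 72.7, 65.1 and 85.9 CPM with FL and 90.3, 90.7 and 92.5 CPM with empty vector. The empty vector libraries stood above all 9 others, and FL and ΔTFR5 overlapped through ΔTFR5 replicate 3. BUB1 fell with ΔTFR4, -1.07 ± 0.20 (SE; adjusted p = 0.00341), and with ΔTFR5, -0.78 ± 0.20 (SE; adjusted p = 0.0300). CDCA3, an adaptor that targets WEE1 for destruction and is named here after its values were seen, fell with ΔTFR4, -1.88 ± 0.36 (SE; adjusted p = 0.00331), and with ΔTFR5, -1.36 ± 0.35 (SE; adjusted p = 0.0287). BUB3, which binds BUB1 and also has roles outside mitosis, did not pass the test, at -0.25 ± 0.13 (SE; adjusted p = 0.179). It was at 148, 140.2 and 139 CPM with ΔTFR4, 139, 137 and 189 CPM with ΔTFR5, 192, 164 and 170.1 CPM with FL and 174, 165 and 168 CPM with empty vector.

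**Figure D3:**
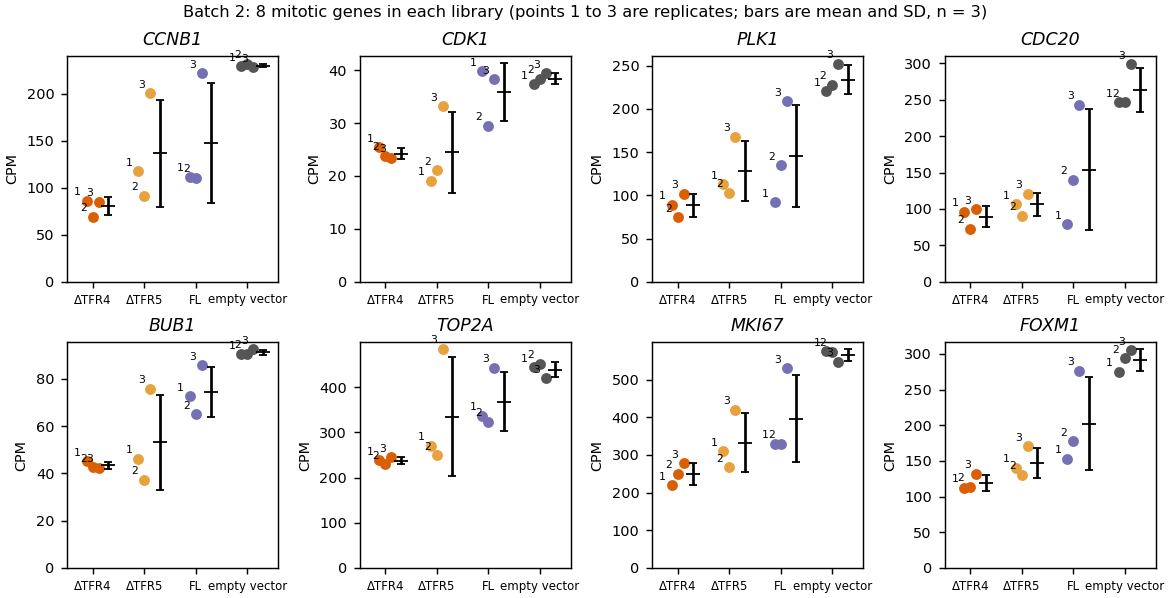
Levels in CPM of 8 mitotic genes in batch 2, by group. Points are libraries numbered by replicate, and the bar beside them is the mean with its SD (n = 3). The empty vector libraries are at the top of each panel except CDK1, TOP2A and FOXM1, where FL or ΔTFR5 libraries reach into or above their range. ΔTFR4 is at or near the bottom, and ΔTFR5 and FL spread widely with replicate 3 highest, except for CDK1 in FL.

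Of the 8 kinesins, motors that slide and crosslink spindle microtubules, 6 fell with ΔTFR4 against empty vector. KIF20A, a motor of the central spindle and named here after its values were seen, had the largest fall of the 50 genes, -1.97 ± 0.38 (SE; adjusted p = 0.00340). It was at 33.1, 26.9 and 32.8 CPM with ΔTFR4, 47.2, 38.7 and 83.8 CPM with ΔTFR5, 44.7, 40.1 and 121 CPM with FL and 112, 127 and 124 CPM with empty vector. ΔTFR4 was lowest, and FL replicate 3 lay inside the empty vector range. KIF11, the motor that separates spindle poles, was at 91.2, 87.0 and 83.7 CPM with ΔTFR4, 92.7, 82.0 and 117 CPM with ΔTFR5, 166, 107 and 160.4 CPM with FL and 164, 167 and 149.6 CPM with empty vector. It fell with ΔTFR4, -0.88 ± 0.17 (SE; adjusted p = 0.00341), and with ΔTFR5, -0.72 ± 0.17 (SE; adjusted p = 0.0183), and FL overlapped empty vector at -0.15 ± 0.17 (SE; adjusted p = 0.573). KIF18A, which dampens chromosome movement at the metaphase plate, went another way. It was at 30.0, 27.4 and 26.7 CPM with ΔTFR4, 25.6, 26.4 and 35.7 CPM with ΔTFR5, 62.2, 37.8 and 36.8 CPM with FL and 35.8, 33.8 and 30.9 CPM with empty vector. The 3 FL libraries exceeded the 9 others, without passing the test at 0.45 ± 0.20 (SE; adjusted p = 0.171), and ΔTFR4 had -0.26 ± 0.20 (SE; adjusted p = 0.368). KIF2C, a microtubule depolymerase at centromeres, also did not pass, at -0.43 ± 0.18 (SE; adjusted p = 0.0998).

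Centromere and kinetochore genes fell in 4 of 6 cases with ΔTFR4 against empty vector and in 0 of 6 with ΔTFR5, beside 11.4% and 4.68% of all genes. With ΔTFR5 all 6 values were still negative, at a median log2 fold change of -0.55, and 4 had an unadjusted p under 0.05. CENPF, a large kinetochore and nuclear matrix protein, was at 147, 155 and 166 CPM in ΔTFR4 libraries, 170.5, 156 and 249.6 CPM in ΔTFR5 libraries and 179.5, 184 and 249 CPM in FL libraries, against 280.1, 288 and 265 CPM in empty vector libraries. No insert library overlapped empty vector, and ΔTFR5 replicate 3 and FL replicate 3 lay nearest to it. The log2 fold change was -0.83 ± 0.17 (SE; adjusted p = 0.00519) for ΔTFR4, -0.53 ± 0.17 (SE; adjusted p = 0.0676) for ΔTFR5 and -0.44 ± 0.17 (SE; adjusted p = 0.135) for FL. SPC25, a subunit of the NDC80 complex, was among the least abundant of the 50 and stood at 2.09, 1.93 and 2.53 CPM with ΔTFR4, 3.34, 1.75 and 5.01 CPM with ΔTFR5, 2.61, 2.29 and 5.56 CPM with FL and 8.12, 7.19 and 7.49 CPM with empty vector. It fell by 1.80 on the log2 scale with ΔTFR4 (adjusted p = 0.00527), and FL had -1.12 ± 0.36 (SE; adjusted p = 0.0947). CENPE, a kinesin that aligns chromosomes, did not pass with ΔTFR4, at -0.30 ± 0.17 (SE; adjusted p = 0.202), and neither did CENPA, the histone H3 variant of centromeres, at -0.77 ± 0.29 (SE; adjusted p = 0.0712). CENPE was at 46.5, 46.3 and 43.4 CPM with ΔTFR4, 42.2, 42.5 and 69.7 CPM with ΔTFR5, 56.3, 53.0 and 56.6 CPM with FL and 56.9, 55.7 and 55.6 CPM with empty vector, with ΔTFR5 replicate 3 the highest of the 12 libraries.

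All 8 spindle, cytokinesis and chromosome structure genes fell with ΔTFR4 against empty vector. TOP2A, the topoisomerase that untangles sister chromatids, was at 239, 229 and 245 CPM in ΔTFR4 libraries, 270.5, 249 and 486 CPM in ΔTFR5 libraries and 337, 324 and 444 CPM in FL libraries, against 444, 452 and 419 CPM in empty vector libraries. ΔTFR5 replicate 3 was the highest of all 12 libraries, so ΔTFR5 overlapped both FL and empty vector. TOP2A fell with ΔTFR4, -0.88 ± 0.21 (SE; adjusted p = 0.0104), and had -0.39 ± 0.21 (SE; adjusted p = 0.260) with ΔTFR5. MKI67, which encodes the proliferation antigen Ki-67 that coats mitotic chromosomes, was at 220.0, 250.3 and 278 CPM with ΔTFR4, 309.9, 267 and 420.1 CPM with ΔTFR5, 329.6, 329.8 and 530.4 CPM with FL and 576, 574 and 548 CPM with empty vector. All insert libraries were below the empty vector libraries, and it fell with ΔTFR4, -1.18 ± 0.20 (SE; adjusted p = 0.00199), and with ΔTFR5, -0.77 ± 0.20 (SE; adjusted p = 0.0290). ECT2, the RHOA activator of cytokinesis, was at 116, 111 and 103 CPM with ΔTFR4, 89.4, 86.5 and 124 CPM with ΔTFR5, 208, 136 and 132 CPM with FL and 176, 169 and 163 CPM with empty vector. It differed from most of the set in that ΔTFR5 replicates 1 and 2 were the lowest libraries and FL replicate 1 the highest. FL replicate 1 is the library whose levels fell with transcript GC, and ECT2 has 38.0% GC. KIF18A, with 37.0% GC, was also highest in FL replicate 1. Whether base composition has a part in these values was not tested.

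FOXM1 and MYBL2, transcription factors that activate late cell cycle genes, fell with both deletions against empty vector. FOXM1 was at 112, 114 and 132 CPM in ΔTFR4 libraries, 141, 130.4 and 171 CPM in ΔTFR5 libraries and 153, 177 and 276 CPM in FL libraries, against 275, 294 and 305 CPM in empty vector libraries. Both deletion groups lay below every empty vector library, and FL replicate 3 lay inside the empty vector range. FOXM1 fell with ΔTFR4, -1.29 ± 0.19 (SE; adjusted p = 0.00106), and with ΔTFR5, -0.98 ± 0.19 (SE; adjusted p = 0.00815). MYBL2 was at 31.0, 28.4 and 32.0 CPM with ΔTFR4, 36.3, 36.1 and 56.8 CPM with ΔTFR5, 35.3, 65.9 and 99.0 CPM with FL and 97.3, 98.7 and 114 CPM with empty vector. The pattern was that of FOXM1 with larger differences, -1.76 ± 0.29 (SE; adjusted p = 0.00181) for ΔTFR4 and -1.26 ± 0.29 (SE; adjusted p = 0.0166) for ΔTFR5.

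**Figure D4:**
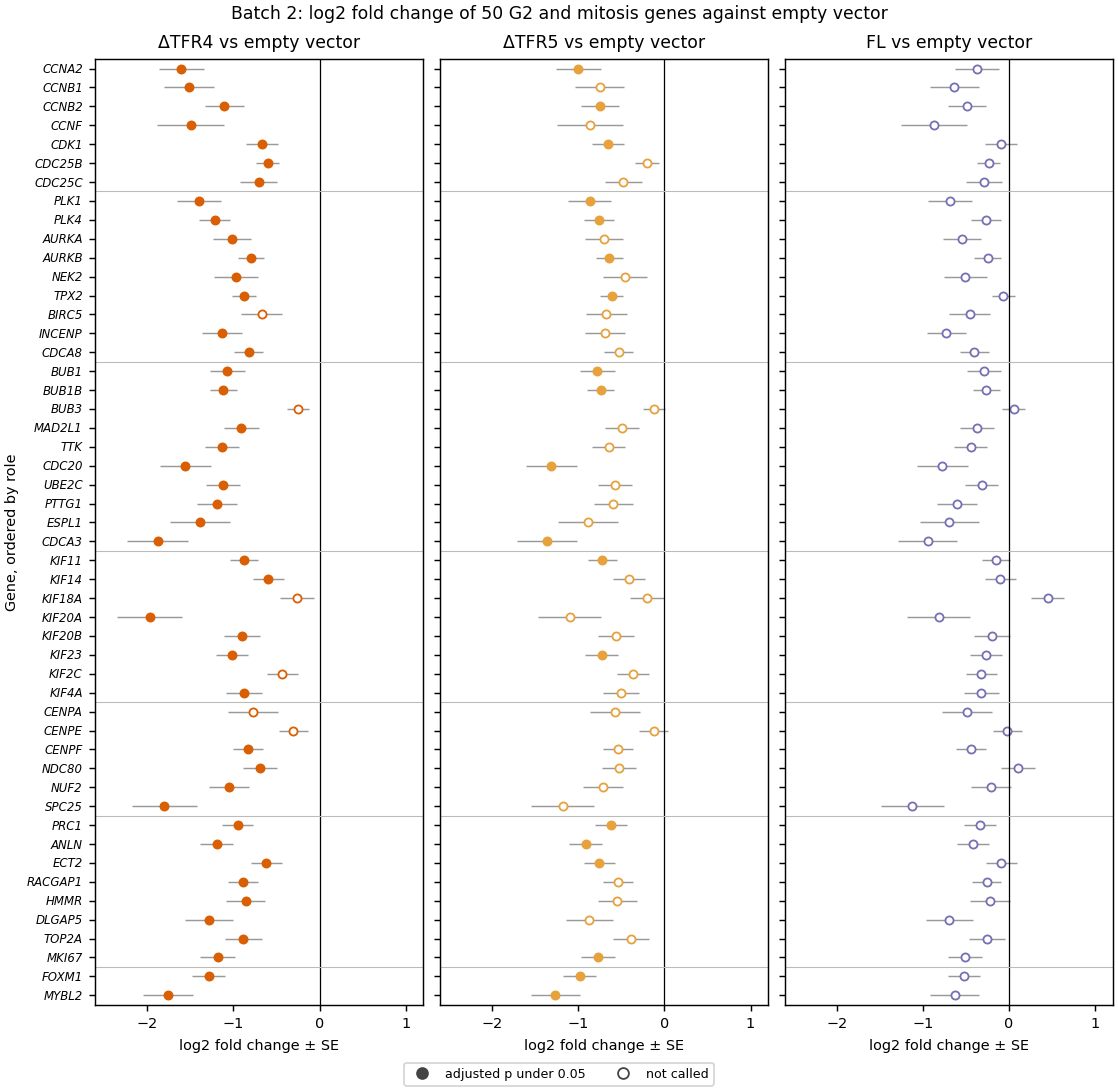
Log2 fold change ± SE of the 50 genes (rows, by role) in batch 2 against empty vector, for ΔTFR4, ΔTFR5 and FL. Filled points had an adjusted p under 0.05: 44 genes with ΔTFR4, 19 with ΔTFR5 and 0 with FL, and the comparisons share the empty vector libraries.

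With ΔTFR5 against empty vector, 19 of the 50 genes fell and none rose, beside a background of 4.68% of all genes called lower, and the median log2 fold change was -0.66 with the median of all genes at 0.02. This count turned on single libraries: it was 39 without ΔTFR5 replicate 3, where 4.18% of all genes were called lower, 1 without replicate 1 and 0 without replicate 2, where 1.08% and 0.701% were. It was 2 to 4 when 1 empty vector library was left out, where 1.17% to 1.43% of all genes were called lower. With GC trends removed it was 30, beside 9.81% of all genes called lower. The direct test of ΔTFR5 against ΔTFR4 called 0 of 50 (10 with an unadjusted p under 0.05, 0 with DESeq2), where 0.453% of all genes were called. The median log2 fold change was 0.34, and 49 of 50 values were positive.

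FL against empty vector in batch 2 called 0 of 50 genes with edgeR's quasi-likelihood test, beside 1.16% of all genes. At an unadjusted p under 0.05 there were 20, and DESeq2 called 3, beside 2057 of 18763 genes. The median log2 fold change was -0.36, 47 of 50 values were negative, and in 25 genes every FL library was below every empty vector library, beside 11.2% of all genes. Without FL replicate 3, 27 genes were called, 26 lower and 1 higher, but so were 5966 of the 19409 genes tested in that fit, 13.8% lower and 17.0% higher. SPC25 had the largest negative value and KIF18A the largest positive value.

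Against FL, 12 of the 50 genes fell with ΔTFR4 and none rose, beside 4.36% of all genes called, 2.47% lower and 1.90% higher. The 12 were ANLN, BUB1, BUB1B, CCNA2, FOXM1, KIF11, KIF23, MYBL2, NDC80, PLK4, TPX2 and UBE2C. The median log2 fold change of the 50 was -0.63 and all 50 values were negative, with the median of all genes at -0.02. CCNA2 had -1.23 ± 0.26 (SE; adjusted p = 0.0228), MYBL2 -1.13 ± 0.29 (SE; adjusted p = 0.0435) and PLK4 -0.95 ± 0.18 (SE; adjusted p = 0.0129). TPX2 was at 188, 187 and 182 CPM with ΔTFR4, 213, 187 and 273 CPM with ΔTFR5, 346, 289.6 and 343 CPM with FL and 336, 352 and 338 CPM with empty vector, so ΔTFR4 lay below FL without overlap, and its log2 fold change was -0.81 ± 0.14 (SE; adjusted p = 0.00852). Leaving out ΔTFR4 replicate 1 or 2 gave 0 calls, beside 0.584% and 0.406% of all genes, and leaving out its replicate 3 gave 1, beside 0.863%. Leaving out FL replicate 1, 2 or 3 gave 20, 17 or 11, all lower, beside 5.63%, 4.41% and 7.42% of all genes called lower. It was 24 by DESeq2, where 6.09% of all genes were called lower, and 0 in a fit of these 2 groups alone, where 0.189% of all genes were called. ΔTFR5 against FL called 0 of 50 (16 with an unadjusted p under 0.05), beside 1.38% of all genes, and DESeq2 called 5, beside 7.77% of all genes. TPX2 and ECT2 had the lowest adjusted p-values there, with -0.54 ± 0.13 (SE; adjusted p = 0.0635) and -0.66 ± 0.18 (SE; adjusted p = 0.0766). The count was 8, all lower, without ΔTFR5 replicate 3, beside 2.05% of all genes. Without FL replicate 3 it was 5, 4 lower and 1 higher, beside 17.9% of all genes called there, so the share of the 50 was below the background.

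Genes of G1 and S phase, of the kinetochore, of the spindle and of condensin and cohesin fell with ΔTFR4 against empty vector more often than the 11.4% of all genes called lower there. Of 40 G1 and S phase genes, which replicate DNA and supply nucleotides, 37 fell and none rose with ΔTFR4 against empty vector, with a median log2 fold change of -1.24, and 22 fell with ΔTFR5, beside 4.68% of all genes. GINS1, a subunit of the replicative helicase, had -2.05 ± 0.27 with ΔTFR4 (SE; adjusted p = 0.000678). With ΔTFR4 against empty vector, 24 of 34 other centromere and kinetochore genes, 25 of 37 other spindle and cytokinesis genes and 15 of 22 condensin and cohesin genes fell, and none in these lists rose. ZWILCH, a checkpoint protein of the outer kinetochore, had -0.89 ± 0.13 (SE; adjusted p = 0.00118), and NCAPH, a condensin subunit, had -1.64 ± 0.28 (SE; adjusted p = 0.00207). Among 20 subunits and regulators of the anaphase-promoting complex 2 fell and 1 rose, with a median of -0.21, no more than the 11.4% and 12.5% of all genes called lower and higher. Of 24 entry kinases, phosphatases and partners 10 fell and 3 rose, the rises at the share of all genes, and CDC25A, the CDC25 phosphatase of G1/S, had -1.35 ± 0.18 (SE; adjusted p = 0.000801). In the E2F, DREAM and MuvB list 6 of 21 fell and 2 rose, and RBL1, the pocket protein p107, had -0.86 ± 0.13 (SE; adjusted p = 0.00140).

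In batch 1 the same genes moved little and in both directions. They took 0.750%, 0.744% and 0.733% of counts with ΔTFR1, 0.749%, 0.746% and 0.739% with ΔTFR2, 0.768%, 0.757% and 0.777% with FL and 0.748%, 0.758% and 0.752% with empty vector. FL against empty vector called 21 of 50 genes, 14 higher and 7 lower, beside 22.7% of all genes (11.4% higher and 11.3% lower), with log2 fold changes from -0.29 to 0.33. The count was 8 without empty vector replicate 1 and 12 without FL replicate 3, beside 8.17% and 11.9% of all genes. The 14 that rose were ANLN, BUB3, CCNA2, CDK1, ECT2, HMMR, KIF11, KIF14, KIF18A, KIF20B, NDC80, NUF2, PLK4 and TTK. The 7 that fell were AURKB, CCNF, CDC20, ESPL1, INCENP, MYBL2 and PLK1. Both sets held genes of several roles, but no kinesin, no kinetochore gene and no spindle, cytokinesis or chromosome structure gene fell. Neither transcription factor rose. The sets differed in base composition: transcripts that rose had 34.2 to 42.1% GC and those that fell had 55.6 to 60.5% GC.

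Across the 50 genes the batch 1 log2 fold change of FL against empty vector had a Spearman rho of -0.84 with transcript GC content, as a description across genes of the same libraries, and across all 13475 genes with a GC value rho was -0.68. The 27 genes under 45% GC had a median log2 fold change of 0.15 and the 23 others one of -0.11. All genes in the same ranges had medians of 0.15 and -0.12. With each library's GC trend removed, the same comparison called 268 of all genes (1.87%) and 0 of the 50 (7 of which had an unadjusted p under 0.05). In batch 2 the calls of ΔTFR4 against empty vector numbered 46 of 50 with GC trends removed, all lower, beside 16.6% of all genes called lower. FL against empty vector in batch 2 had a rho with GC of -0.58 across the 50 genes and -0.30 across all 18390 genes with a GC value. There the 27 genes under 45% GC had a median log2 fold change of -0.26 and the 23 others one of -0.51. All genes in the same ranges had medians of 0.18 and -0.087.

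**Figure D5:**
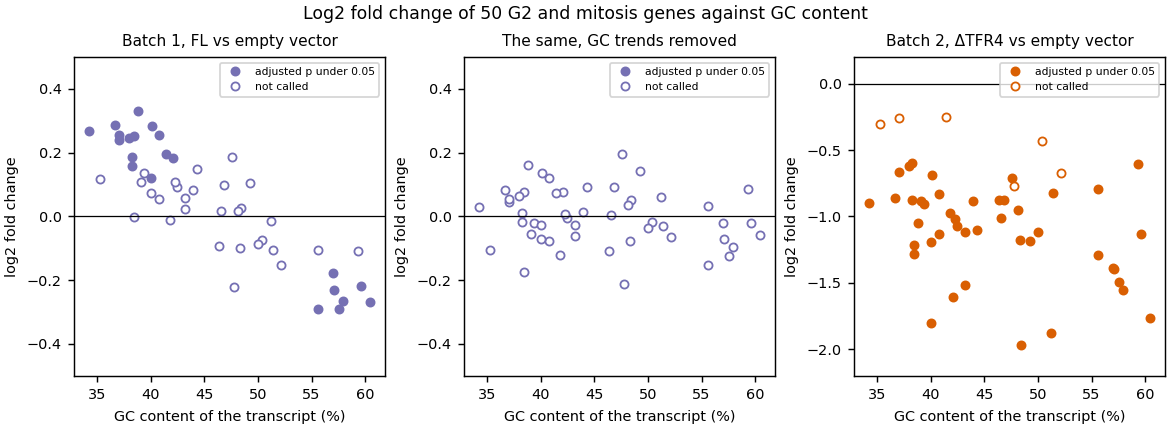
Each point is 1 of the 50 genes, with the GC content of its longest transcript (%) on the x axis and its log2 fold change on the y axis, filled where the adjusted p was under 0.05. In batch 1 the log2 fold change of FL against empty vector follows GC content (left, 21 genes called). The middle panel gives the same with GC trends removed, which takes out such a trend by construction (0 called, beside 1.87% of all genes). The fall with ΔTFR4 in batch 2 spans the whole GC range (right, 44 called).

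NUF2, a subunit of the NDC80 complex with 38.8% GC, had the largest rise of batch 1. It was at 51.7, 58.4 and 59.8 CPM with ΔTFR1, 58.6, 59.3 and 56.6 CPM with ΔTFR2, 71.1, 71.2 and 76.0 CPM with FL and 54.7, 60.1 and 58.8 CPM with empty vector. All 3 FL libraries stood above the 9 others, and the log2 fold change of FL against empty vector was 0.33 ± 0.07 (SE; adjusted p = 0.00122). NUF2 was also the gene with the largest fall in both deletions against FL, -0.36 ± 0.07 (SE; adjusted p = 0.00494) for ΔTFR1 and -0.32 ± 0.07 (SE; adjusted p = 0.00957) for ΔTFR2. HMMR, a spindle assembly factor, and NDC80, the partner of NUF2, rose with FL against empty vector, 0.29 ± 0.07 (SE; adjusted p = 0.00286) and 0.28 ± 0.08 (SE; adjusted p = 0.0115). AURKB, with 55.6% GC, was at 85.2, 76.8 and 74.8 CPM with ΔTFR1, 73.5, 75.3 and 74.8 CPM with ΔTFR2, 65.1, 72.1 and 65.1 CPM with FL and 85.6, 84.2 and 77.8 CPM with empty vector. FL was lowest without overlap, at -0.29 ± 0.06 (SE; adjusted p = 0.00224) against empty vector. CCNF, a cyclin that serves as a ubiquitin ligase adaptor, and MYBL2 fell as well, -0.29 ± 0.07 (SE; adjusted p = 0.00326) and -0.27 ± 0.08 (SE; adjusted p = 0.0203). CCNB1 was at 296, 307 and 294 CPM with ΔTFR1, 299.9, 308 and 295 CPM with ΔTFR2, 305, 299 and 332 CPM with FL and 295, 295 and 308 CPM with empty vector, with overlapping groups and 0.06 ± 0.05 (SE; adjusted p = 0.376) for FL against empty vector. None of these calls held with GC trends removed, where 0.0419% to 1.87% of all genes were called.

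ΔTFR1 against FL called 17 of 50 genes, 3 higher and 14 lower, beside 10.1% of all genes (4.40% higher and 5.66% lower). The 3 that rose were AURKB, CCNF and ESPL1 (separase, the protease that opens cohesin), at 0.23 ± 0.06 (SE; adjusted p = 0.0273), 0.21 ± 0.07 (SE; adjusted p = 0.0459) and 0.19 ± 0.06 (SE; adjusted p = 0.0495). KIF18A and PLK4 fell after NUF2, at -0.28 ± 0.09 (SE; adjusted p = 0.0343) and -0.28 ± 0.08 (SE; adjusted p = 0.0290). ΔTFR2 against FL called 12, with CDC20 and PLK1 higher and 10 lower, beside 10.0% of all genes (4.86% higher and 5.15% lower). CDC20 was at 304, 321 and 305 CPM with ΔTFR1, 315, 359.6 and 305 CPM with ΔTFR2, 299.8, 297 and 246 CPM with FL and 351, 336 and 325 CPM with empty vector. FL replicate 3 was the lowest library, and the log2 fold change of ΔTFR2 against FL was 0.22 ± 0.07 (SE; adjusted p = 0.0472). PLK1 had 0.21 ± 0.05 (SE; adjusted p = 0.0157), and TTK, the checkpoint kinase MPS1, had -0.30 ± 0.08 (SE; adjusted p = 0.0170). Both comparisons share the FL libraries with that of FL against empty vector. The ΔTFR1 count was 0 without ΔTFR1 replicate 1, 3 without FL replicate 3, 7 without ΔTFR1 replicate 2 and 8 without FL replicate 1, where all genes were called at 0.152%, 1.95%, 5.43% and 5.55%. The ΔTFR2 count was 0 without ΔTFR2 replicate 2, 1 without ΔTFR2 replicate 3 or FL replicate 3, 4 without ΔTFR2 replicate 1, 6 without FL replicate 1 and 21 without FL replicate 2, where 18.7% of all genes were called, and the other fits that left out 1 library called 0 to 5.32% of them. With GC trends removed both counts were 0, with 6 and 7 genes at an unadjusted p under 0.05. Those fits called only 0.252% and 0.0419% of all genes.

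Neither deletion of batch 1 differed from empty vector in a called gene of this set. ΔTFR1 against empty vector called 0 of 50, beside 0.00699% of all genes, and ΔTFR2 against empty vector called 0 of 50, beside 0.0140%. ΔTFR2 against ΔTFR1 called 0 of 50 and 0 of all genes. In each of the 3 comparisons 1 of the 50 genes had an unadjusted p under 0.05 with edgeR, and DESeq2 called 0. The standard errors were smaller than in batch 2, with a median of 0.06 against 0.20 on the log2 scale.

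FL against empty vector was measured in both batches, in tables made in different ways and fitted apart. Of the 50 genes, 28 had a positive log2 fold change in batch 1 and a negative one in batch 2, 19 were negative in both and 3 positive in both. Of those 28, 18 stayed positive in batch 1 with GC trends removed and 10 turned negative. No test of the difference between batches was made.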

How the data were processed

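RNA-seq of 24 A375 libraries was used as 2 tables, each holding 1 batch of 12 libraries. In batch 1 the authors deposited raw counts per gene symbol, and in batch 2 the authors deposited estimated counts from salmon per Ensembl gene, rounded here to whole numbers. Per the submitters' processing notes, the tools included STAR 2.7.3a, Subread 1.6.2 with featureCounts, cutadapt 2.5, FastQC 0.11.5 and DESeq2 1.24.0; builds GRCh38 and GRCm38 are listed with no role. Neither the version of salmon nor the annotation or strand setting is given in the sources used here. The design text says that some libraries were taken over from an earlier series.

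The tables were fitted apart, and no level was tested across them. In R 4.3.3, edgeR 4.0.16 gave the tests, after filterByExpr (minimum count 10, minimum total 15) and TMM normalisation, by the robust quasi-likelihood method, with 1 model per batch over its 4 groups and no block. Adjustment was by Benjamini-Hochberg over all genes tested, with calls at adjusted p under 0.05. "Rose" and "fell" are used of called genes. Standard errors were taken as the absolute log2 fold change over the root of the F statistic. CPM was computed on TMM library sizes, and the biological coefficient of variation was 0.0503 in batch 1 and 0.212 in batch 2. GC content and length come from the longest transcript of each gene in GENCODE. GC trends were removed per library with a spline of 5 degrees of freedom. The fits were tested on simulated data.

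The genes given in every library were 12 anchors plus, for each main comparison, the 3 largest rises and the 3 largest falls among those called (mean log2 CPM of 1 or more), or the 2 lowest p-values where none was called. The library values of BUB3, KIF20A, CENPE and, in batch 2, KIF18A were added after seeing them. The members and lists were chosen with earlier results of these data known. Replicate numbers of different groups share no stated origin and were not used as pairs. Replicates of a group always differed by more than sampling noise (chi-square over genes 1.50 to 227 per gene), and p-values measure the spread between these libraries. Alternatives were DESeq2 1.42.0, DESeq2 size factors, no filter, a fit of 2 groups alone, a replicate block, GC trends removed and each library left out. For the anchor genes in both deletions against empty vector in batch 2 they were added after seeing the data.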

Additional observations from a re-analysis of the deposited data

Results flagged for a closer look

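For 4 of the 50 genes the FL libraries lay on opposite sides of the empty vector libraries in the batches, without overlap in either, which held for 2.72% of the 12897 genes tested in both batches and matched by symbol. CCNA2 had a log2 fold change of 0.18 in batch 1 and -0.37 in batch 2. BUB1 had 0.093 and -0.29, ANLN had 0.12 and -0.42, and PTTG1 had 0.11 and -0.60, in the same order. The difference between batches was not tested, since the tables were made in different ways. BUB1 turned negative in batch 1 when GC trends were removed, at -0.0047.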

How the results depend on the processing

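The calls with ΔTFR4 against empty vector in batch 2 ran from 35 to 39 with 1 library left out and from 42 to 50 under all other alternatives, so their count stayed within 1.5 times 44. Of all genes, 5.39% to 6.97% were called lower with 1 library left out and 4.35% to 25.4% under the other alternatives. With ΔTFR5 against empty vector the 19 calls became 31 by DESeq2, 35 in a fit of those 2 groups, 32 with a replicate block, 30 with GC trends removed, 40 with both, and 0 to 39 with 1 library left out. In the same order 7.92%, 16.6%, 5.23%, 9.81%, 10.7% and 0.701% to 4.18% of all genes were called lower. For ΔTFR4 against FL the 12 calls became 24 by DESeq2, 0 in a fit of 2 groups, 23 with GC trends removed and a replicate block, and 0 to 20 with 1 library left out. The shares of all genes called lower were 6.09%, 0.0974%, 4.88% and 0.2% to 7.42%. For ΔTFR5 against FL the 0 calls became 5 by DESeq2, 2 without the filter, 4 with GC trends removed, 5 with that and the block, and 0 to 8 with 1 library left out. Beside them 7.77%, 1.22%, 4.72%, 4.05% and 0.098% to 17.9% of all genes were called. For FL against empty vector in batch 2 the 0 calls became 3 by DESeq2, 1 with the block, 14 with GC trends removed and the block, and 0 to 27 with 1 library left out. Here 11%, 2.13%, 9.01% and 0.031% to 30.7% of all genes were called. For ΔTFR5 against ΔTFR4 a fit of 2 groups called 4, all higher, beside 6.33% of all genes called, 3.19% higher. In batch 1 the GC fits, with or without the block, called 0 in FL against empty vector, 0 or 1 in ΔTFR1 against FL and 0 in ΔTFR2 against FL. Without the block they called 1.87%, 0.252% and 0.0419% of all genes, and with it 3.17%, 0.901% and 0.964%. A fit of 2 groups called 2 in ΔTFR1 against FL and 6 in ΔTFR2 against FL, beside 2.18% and 5.2% of all genes. Leaving out 1 library gave 8 to 25 calls in FL against empty vector, 0 to 24 in ΔTFR1 against FL and 0 to 21 in ΔTFR2 against FL. These fits called 8.17% to 28.1%, 0.152% to 19% and 0 to 18.7% of all genes. The cause of these changes was not tested. Same-numbered libraries of different groups had correlations of -0.126 to 0.180 in batch 1 and -0.142 to 0.197 in batch 2. Differently numbered ones had -0.163 to 0.144 and -0.252 to 0.162. These ranges overlap, but so few libraries per group cannot exclude an effect shared by number. In batch 2, replicate 3 had the highest median log2 deviation of the 50 genes in every group. It also had the least SLNCR in every group given an insert. Whether same-numbered libraries share an origin was not tested, and the block counts above are given for completeness.

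With GC trends removed, some batch 1 log2 fold changes changed sign. In FL against empty vector CCNB1 had -0.026, BUB1 -0.0047, CENPF -0.077, TOP2A -0.055 and FOXM1 0.033 (0.034 with the block). In ΔTFR1 against FL PLK1 had -0.0098 (-0.0092 with the block), CENPF 0.037, CDC20 -0.0080 (-0.0071) and FOXM1 -0.031 (-0.032). In ΔTFR2 against FL CCNB1 had 0.012, CDK1 0.031 (0.033), KIF11 0.015, CENPF 0.081, TOP2A 0.014 (0.013) and FOXM1 -0.047. With 1 library left out, the sign of small values turned in ΔTFR2 against FL (AURKA from -0.0084 to 0.034, MKI67 from -0.0078 to 0.039) and in FL against empty vector of batch 2 (CDK1 from -0.18 to 0.016, KIF11 from -0.26 to 0.015). It also turned in ΔTFR5 against FL, with CCNB1 from -0.50 to 0.30, PLK1 from -0.43 to 0.18, AURKA from -0.43 to 0.13, CENPF from -0.32 to 0.079, TOP2A from -0.50 to 0.044 and MKI67 from -0.46 to 0.012.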
